A study of Caenorhabditis elegans with 52 samples.

Results

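The piRNA 21ur-425 (WBGene00050238) is 1 of 14680 piRNAs in a table of small RNA levels from whole day 1 adult Caenorhabditis elegans, the nematode worm, and is described here across all 42 libraries of that table. It was picked by its name, because earlier readings of the same table had found it lower in several mutants. Its levels in mutants and controls are therefore given as a description, without a test. Tests are kept for its course over time, and they are not fully independent of that choice either. The gene lies on chromosome IV in the WBcel235 gene table, where 0 other genes contain it, and the authors' table gives it the class none, neither Spermatogenic nor Oogenic.

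piRNAs are short germline RNAs that bind a Piwi protein, PRG-1 in this worm, and guide the silencing of matching transcripts. Each worm piRNA comes from its own short precursor, whose transcription needs factors such as TOFU-5. PARN-1 trims the 3′ end of the precursor and HENN-1 then methylates that end. PUP-1 is a poly(U) polymerase, an enzyme that adds uridines to RNA ends. DISL-2 is the worm relative of DIS3L2, an exonuclease that degrades RNA from the 3′ end and is known for acting on uridylated RNAs.

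Each of the 21 groups had 2 libraries. In the steady-state part, 22 libraries in 11 groups held the single mutants disl-2(how27) and disl-2(tm5337) with an isogenic disl-2 control, henn-1(tm4477); disl-2(how18) with henn-1(tm4477), and parn-1(tm869); disl-2(tm5337) with parn-1(tm869). They also held pup-1(how20); disl-2(how27), pup-1(how50); disl-2(tm5337) and pup-1(tm1021) with a paired control, which the deposited column names call N2, the common laboratory wild type. The pup-1 allele thus differs between all 3 pup-1 strains, and the henn-1 or parn-1 allele is present on both sides of its comparison. All worms were day 1 adults carrying eggs, kept on plates of bacteria. In the time course, 20 libraries in 10 groups followed gfp::aid::tofu-5(how48) worms, called the degron strain, with and without disl-2(how27), at 0, 2, 4, 6 and 12 h of 4 mM auxin. The auxin-inducible degron (aid) lets auxin deplete the tagged TOFU-5, and sun-1p, a germline promoter, drives the tirI transgene that this needs in every library of the time course. The table holds no mRNA, so neither the mutations nor the loss of TOFU-5 could be checked in the libraries, and markers of tissues or germline stages are not part of it. In RNA from whole animals, fewer germ cells and less piRNA per germ cell cannot be told apart.

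Levels are in RPM, reads per 1000000 reads of the library, whose depth ran from 8807176 to 52798564 reads. The smallest step between values is the worth of 1 read, and 21ur-425 came to a whole number of reads within 0.01 read in all 42 libraries, so none of its reads were divided with another locus. It had between 40 and 1322 reads a library. The exact Poisson 95% intervals of the 2 libraries of a group, which cover counting error only, overlapped in 18 of 21 groups. Overlap is a loose measure of agreement. In disl-2(how27), for example, the intervals ran from 6.09 to 8.21 RPM and from 7.93 to 9.55 RPM, and each value lay outside the other's interval. The groups without overlap were henn-1, henn-1; disl-2(how18) and the degron strain at 2 h.

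Across the steady-state groups the mean level of 21ur-425 ran from 88.5 RPM in henn-1 to 2.15 RPM in parn-1; disl-2(tm5337). From high to low the order was henn-1, henn-1; disl-2(how18) at 54.2 RPM, the pup-1 control at 24.5 RPM, the disl-2 control at 15.2 RPM, pup-1; disl-2(tm5337) at 9.16 RPM, disl-2(how27) at 7.90 RPM, pup-1 at 6.03 RPM, pup-1; disl-2(how27) at 5.26 RPM, parn-1 at 4.63 RPM, disl-2(tm5337) at 3.42 RPM and parn-1; disl-2(tm5337). Among neighbours in this order, pup-1; disl-2(how27) and parn-1 had overlapping libraries, and the other 9 of 10 pairs did not. By rank, 21ur-425 stood between places 598 and 849 of 14581 piRNAs in henn-1 libraries, between 770 and 1159 in the control libraries, and between 2144 and 3033 in the disl-2 single mutants.

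**Figure D1:**
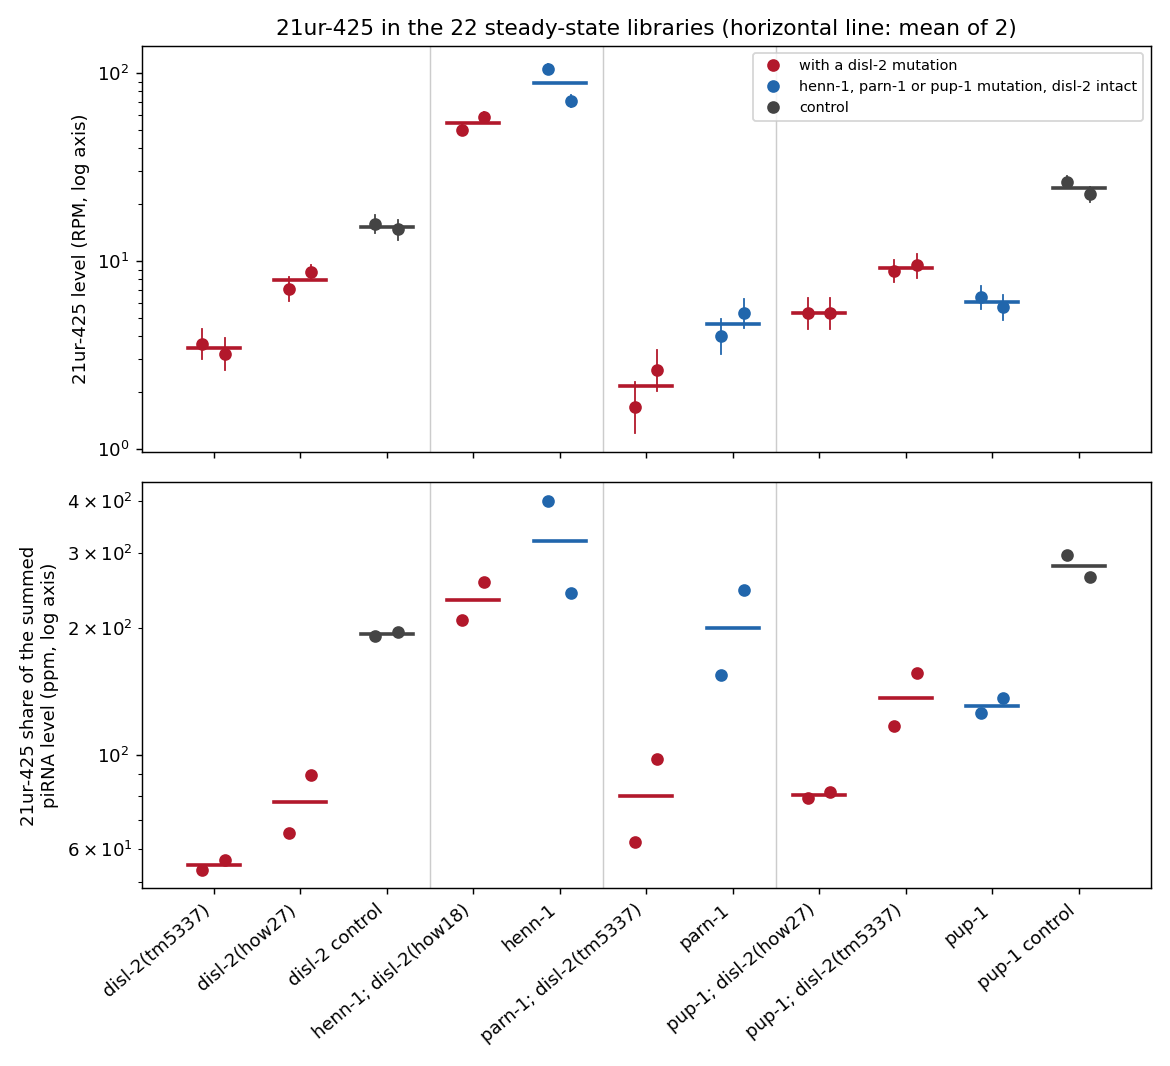
Level of 21ur-425 in each steady-state library, in RPM with exact Poisson 95% intervals (top) and as a share of the summed piRNA level (bottom), both on log axes; dots are libraries and horizontal lines the mean of 2. In the single-mutant panel the disl-2 mutants lie between 3.21 and 8.71 RPM, below both control libraries at 14.7 and 15.7 RPM.

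In disl-2 single mutants 21ur-425 was lower than in the isogenic control, more so in disl-2(tm5337) than in disl-2(how27). It was at 7.09 and 8.71 RPM in disl-2(how27), against 15.7 and 14.7 RPM in the disl-2 control. The ratio of means was 0.519, and the difference in mean log2(RPM + 0.5) was -0.91 ± 0.15 (SE, n = 2 each), a scale that understates changes of low piRNAs. Of the 5622 piRNAs averaging 1 RPM or more over these 4 libraries, 0 had a lower difference, and the median over all of them was 0.47. The summed piRNA level was 1.31 times that of the control. As a share of it, in parts per 1000000 (ppm), 21ur-425 was at 65.2 and 89.5 ppm in disl-2(how27), against 192 and 195 ppm in the control, so the gap was wider on this scale (log2 -1.34 ± 0.23).

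In disl-2(tm5337), set against the same control libraries, 21ur-425 was at 3.63 and 3.21 RPM. The ratio of means was 0.225 and the log2 difference -2.01 ± 0.09 (SE, n = 2 each). Here 74 of 5313 piRNAs had a lower difference, and the median over all was -0.19. The share was 53.4 and 56.4 ppm, a log2 difference of -1.82 ± 0.04. Between the alleles, disl-2(tm5337) lay below disl-2(how27) by a log2 difference of -1.09 ± 0.16, while the median of all piRNAs in that comparison was -0.63 and 1672 of 5840 had a lower difference. On the share scale the allele difference was -0.48 ± 0.23, with no overlap of libraries.

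**Figure D2:**
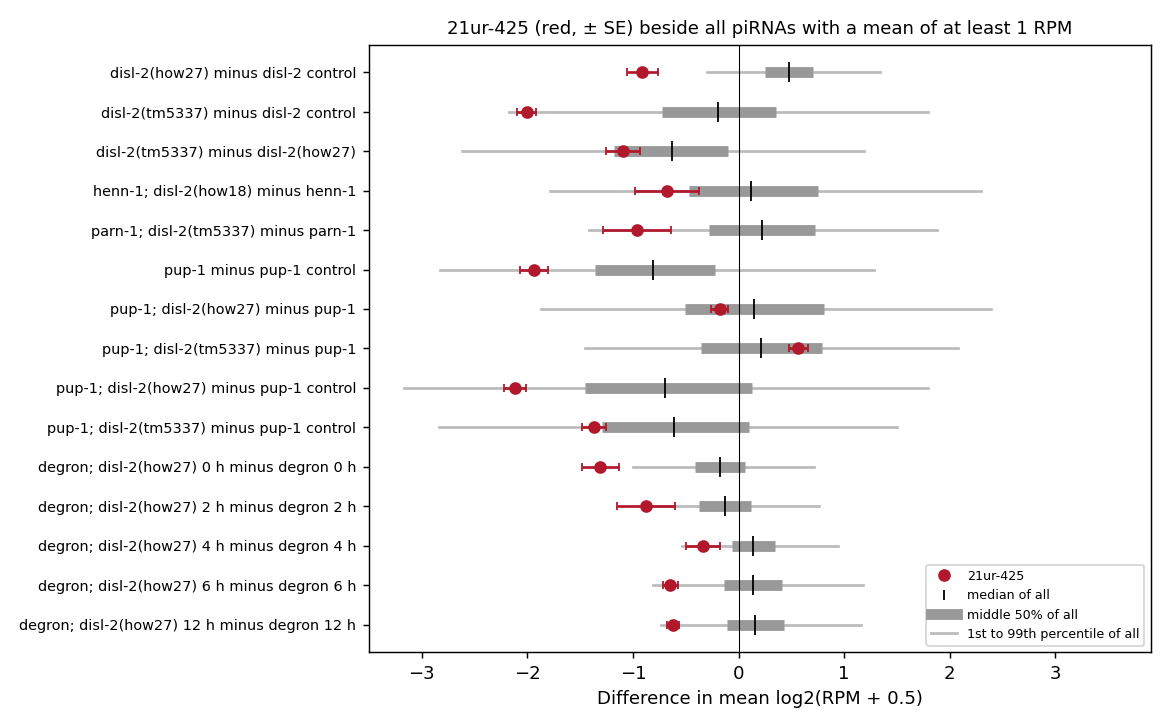
Difference in mean log2(RPM + 0.5) of 21ur-425 (red, ± SE of 2 against 2 libraries) in each comparison, beside all piRNAs averaging 1 RPM or more there: black tick, median; grey bar, middle 50%; grey line, 1st to 99th percentile. In disl-2(how27) against its control 21ur-425 lies at -0.91 while the median of all is 0.47, and with disl-2(tm5337) in pup-1 worms it lies at 0.57, above that comparison's median of 0.21.

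In henn-1 worms the level of 21ur-425 in RPM was higher than in all groups without the henn-1 mutation, with and without disl-2(how18). The summed piRNA level was higher too, with a mean of 279745 RPM in henn-1 and 233391 RPM in henn-1; disl-2(how18). Means of that sum were 87362.5 RPM in the pup-1 control and 78740 RPM in the disl-2 control. The level of 21ur-425 was 49.8 and 58.6 RPM in henn-1; disl-2(how18), against 106 and 71.2 RPM in henn-1. The libraries did not overlap, but the henn-1 replicates differed from each other by a factor of 1.48, and the log2 difference was -0.68 ± 0.31 (SE, n = 2 each), with a median of 0.12 over 8769 piRNAs, 1527 of which had a lower difference. Without henn-1 replicate 1 the difference was -0.39. As a share, the libraries overlapped, at 209 and 257 ppm in henn-1; disl-2(how18) and 399 and 242 ppm in henn-1. Shares in the pup-1 control, 297 and 264 ppm, lay above those in henn-1; disl-2(how18) and between those in henn-1. Shares in the disl-2 control, 192 and 195 ppm, lay below those of both henn-1 groups.

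In worms mutant for parn-1, the gene of the trimming enzyme, 21ur-425 was at most 5.28 RPM in all 4 libraries and lower with the disl-2 mutation. The double mutant parn-1; disl-2(tm5337) held 1.67 RPM (42 reads) and 2.63 RPM (65 reads), against 3.97 RPM (88 reads) and 5.28 RPM (133 reads) in parn-1. The log2 difference was -0.96 ± 0.32 (SE, n = 2 each), with a median of 0.22 over 4039 piRNAs, 220 of which had a lower difference. Shares were 62.2 and 97.6 ppm in parn-1; disl-2(tm5337), and 155 and 245 ppm in parn-1, again without overlap. The parn-1 shares lay on either side of those in the disl-2 control, at 192 and 195 ppm, but below those in the pup-1 control, at 297 and 264 ppm. The mean level was 4.63 RPM in parn-1, against 15.2 RPM in the disl-2 control and 24.5 RPM in the pup-1 control.

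In pup-1 mutants 21ur-425 was at 6.39 and 5.66 RPM, against 26.3 and 22.7 RPM in the paired control. The ratio of means was 0.246 and the log2 difference -1.94 ± 0.13 (SE, n = 2 each), beside a median of -0.81 over 5414 piRNAs, 476 of which had a lower difference. The summed piRNA level was also lower, at 0.529 of the control, and the share of 21ur-425 was 126 and 136 ppm in pup-1, against 297 and 264 ppm in the control (log2 -1.10 ± 0.10). The 2 control groups differed as well: the pup-1 control libraries at 22.7 and 26.3 RPM lay above the disl-2 control libraries at 14.7 and 15.7 RPM, and the column names give the strain N2 for the pup-1 control and no strain for the disl-2 control.

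In combination with pup-1 alleles, the level of 21ur-425 was higher than in pup-1 alone with disl-2(tm5337), and little different in RPM with disl-2(how27). In pup-1; disl-2(how27) 21ur-425 was at 5.27 and 5.26 RPM, below the pup-1 libraries (log2 -0.18 ± 0.08, and -0.10 without pup-1 replicate 1), and 1731 of 4669 piRNAs had a lower difference. In pup-1; disl-2(tm5337) it was at 8.85 and 9.47 RPM, above them (log2 0.57 ± 0.09), and of the level differences plotted for all comparisons it was the only one above 0. There 3074 of 4687 piRNAs had a lower difference. As a share, pup-1; disl-2(how27) was at 78.9 and 81.7 ppm and lay below pup-1 (log2 -0.70 ± 0.06), while pup-1; disl-2(tm5337), at 117 and 156 ppm, overlapped it (log2 0.05 ± 0.22). Both double mutants share the pup-1 libraries as comparison and carry other pup-1 alleles than it. Against the pup-1 control, which they also share, the log2 differences were -2.11 ± 0.10 for pup-1; disl-2(how27) and -1.37 ± 0.11 for pup-1; disl-2(tm5337), with medians over all piRNAs of -0.69 and -0.61. A lower difference was found for 516 of 5471 piRNAs in pup-1; disl-2(how27) and for 1232 of 5459 in pup-1; disl-2(tm5337).

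At 0 h of the time course 21ur-425 was again lower with disl-2(how27). It was at 3.23 and 3.88 RPM in the degron; disl-2(how27) strain, against 10.5 and 8.65 RPM in the degron strain. The log2 difference was -1.31 ± 0.17 (SE, n = 2 each), and 3 of 4722 piRNAs had a lower one, with a median over all of -0.18. Shares were 96.1 and 89.7 ppm with disl-2(how27), and 233 and 165 ppm without it.

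Over the hours of auxin the gap between the strains was narrowest at 4 h. At 2 h 21ur-425 was at 4.89 and 4.24 RPM in the degron; disl-2(how27) strain, against 7.23 and 10.6 RPM in the degron strain. At 4 h it was at 6.80 and 5.38 RPM with disl-2(how27), against 7.67 and 7.88 RPM without it. At 6 h the values were 4.68 and 4.21 RPM with disl-2(how27), against 7.15 and 7.32 RPM without it, and at 12 h they were 2.80 and 3.00 RPM with disl-2(how27), against 4.59 and 4.85 RPM without it. The strains did not overlap at any of the 5 times. The log2 differences, degron; disl-2(how27) minus degron, were -1.31 at 0 h, -0.88 at 2 h, -0.34 at 4 h, -0.65 at 6 h and -0.62 at 12 h. Without replicate 2 of the degron; disl-2(how27) strain the difference at 4 h was -0.18. The median difference of all piRNAs moved up as well, from -0.18 at 0 h and -0.13 at 2 h to 0.14, 0.13 and 0.15 at 4, 6 and 12 h. A lower difference than that of 21ur-425 was found for 73 of 4472 piRNAs at 2 h and 215 of 4197 at 4 h. At 6 h it was found for 103 of 3556, and at 12 h for 77 of 3221. In the order of mean levels over the 10 groups, the degron strain at 0 h stood at the top and the degron; disl-2(how27) strain at 12 h at the bottom, and neighbours overlapped between the degron strain at 0 and 2 h, at 2 and 4 h, between the degron; disl-2(how27) strain at 2 h and the degron strain at 12 h, and between the degron; disl-2(how27) strain at 2 and 6 h.

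**Figure D3:**
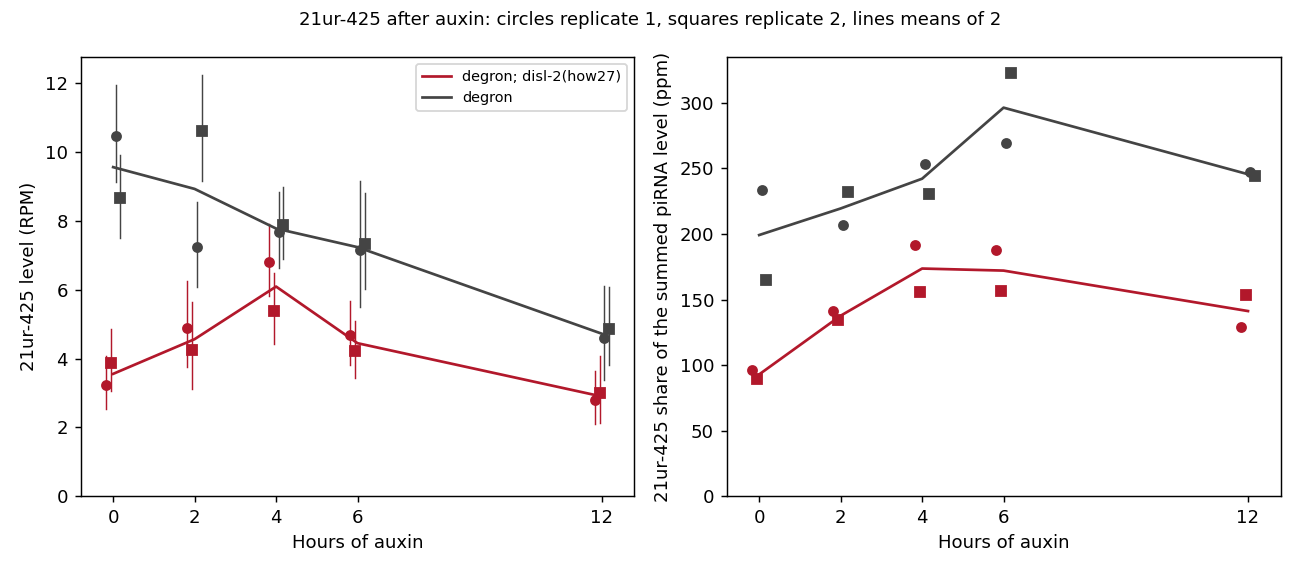
Level of 21ur-425 in RPM with exact Poisson 95% intervals (left) and as a share of the summed piRNA level (right) against hours of auxin, in the degron; disl-2(how27) strain (red) and the degron strain (grey); circles and squares are replicates 1 and 2, drawn slightly apart, and lines join means of 2. The red points climb to 6.80 and 5.38 RPM at 4 h before they drop, while the grey means run down to 4.72 RPM at 12 h.

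The change over time was tested by regressing log2(RPM + 0.5) on hours in 1 limma fit over the 20 libraries and 4112 piRNAs, with p-values adjusted over all of them by Benjamini-Hochberg. In the degron; disl-2(how27) strain the slope of 21ur-425 was -0.034 ± 0.022 per hour on the log2 scale (limma adjusted p = 0.163), while 62.7% of piRNAs were called falling and 0.195% rising. Its 95% interval, from -0.080 to 0.011, allows no upper limit on the half-life and a lower limit of 12.6 h. In the degron strain 21ur-425 fell by 0.079 ± 0.022 per hour (limma adjusted p = 0.00228), a half-life of 12.7 h with a 95% interval from 8.06 to 29.6 h. There 81.9% of piRNAs were called falling and 0.195% rising, so the call does not set 21ur-425 apart. The half-life values only restate slopes of RPM. They assume that no 21ur-425 was made after 0 h, which could not be checked, and their intervals cover the error of the fit alone. The median slope of all piRNAs was -0.072 with disl-2(how27) and -0.105 without it, and 21ur-425 declined less steeply than 3411 and 2836 of the 4112 piRNAs in these strains. The slopes of 21ur-425 differed by 0.044 ± 0.031 (95% interval -0.019 to 0.108, limma adjusted p = 0.550), which was not past the threshold, and 0% of piRNAs were called for such a difference in either direction. Both slopes and their difference use the libraries, those at 0 h included, in which 21ur-425 is lower with disl-2(how27). None of these tests is therefore independent of the choice of 21ur-425.

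The call in the degron strain was lost without the last time and without the replicate 1 series. In the second case the slope barely changed, and its SE rose from 0.022 to 0.034 with fewer libraries. With the times from 0 to 6 h alone its slope was -0.064 (limma adjusted p = 0.159), and without the replicate 1 series it was -0.077 (limma adjusted p = 0.0604). With disl-2(how27) the slope passed the threshold in 1 case, without the 0 h library of replicate 1, at -0.053 (limma adjusted p = 0.0436).

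Relative to the summed piRNA level, 21ur-425 was no lower at 12 h than at 0 h in either strain. That sum was between 19568 and 21627 RPM at 12 h with disl-2(how27), against 33597 and 43249 RPM at 0 h, and between 18571 and 19867 RPM at 12 h without it, against 44866 and 52383 RPM at 0 h. The share of 21ur-425 was between 129 and 191 ppm at 2 to 12 h with disl-2(how27), above both 0 h libraries of that strain at 89.7 and 96.1 ppm. In the degron strain the share was 247 and 244 ppm at 12 h, against 233 and 165 ppm at 0 h. After rescaling all libraries to equal medians, the slopes were 0.040 with disl-2(how27) (limma adjusted p = 0.314) and 0.025 without it (limma adjusted p = 0.442).

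The change between 0 and 4 h was looked at after the levels had been plotted over time, and it uses the 0 h libraries in which 21ur-425 was lower with disl-2(how27), so it is not independent of the choice of 21ur-425. Taking time as a factor, 21ur-425 at 4 h minus 0 h was 0.70 ± 0.24 on the log2 scale in that strain (limma adjusted p = 0.439), where 28 of 4112 piRNAs had a higher value and the median was -0.18. In the degron strain it was -0.28 ± 0.24 (limma adjusted p = 0.372), where 14.1% of piRNAs were called lower. These 580 calls were not stable, with 0 without degron 4 h replicate 1 or degron 0 h replicate 2 and at most 278 without any other degron library of these times or either degron; disl-2(how27) library at 4 h. The difference between the strains was 0.97 ± 0.34 (limma adjusted p = 0.599), which was not past the threshold. There 131 of 4112 piRNAs had a higher value, the median was 0.35, and 0% of piRNAs were called in either direction. On the share scale, 21ur-425 was at 191 and 156 ppm at 4 h with disl-2(how27), against 96.1 and 89.7 ppm at 0 h. In the degron strain it was at 254 and 231 ppm at 4 h, against 233 and 165 ppm at 0 h, and these libraries overlapped.

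The piRNAs most like 21ur-425 over the 11 steady-state groups were sought by the root-mean-square distance between centred log2 profiles, among 3163 piRNAs averaging 5 RPM or more. The nearest were 21ur-13923 (distance 0.37), 21ur-5558 (0.38), 21ur-8065 (0.43), 21ur-1402 (0.44) and 21ur-4086 (0.45), beside a median distance of 1.03, and 21ur-13923, 21ur-5558 and 21ur-4086 belong to the authors' class Oogenic. All 5 had reads divided between loci in at least 18 of 42 libraries, and 21ur-13923 and 21ur-5558, like 21ur-8065 and 21ur-1402, had almost the same values, so their levels are uncertain. Since they were chosen for their likeness over these groups, differences that they share with 21ur-425 are a description only. Their log2 differences lay between -1.62 and -0.93 in disl-2(tm5337) against the control, where the median of all piRNAs was -0.19, and between -1.64 and -0.72 in pup-1 against its control, where it was -0.81. In disl-2(how27) against the control they lay between -0.03 and 0.04, where 21ur-425 was at -0.91. The 3 nearest piRNAs with undivided reads, looked up after these values were seen, were the Oogenic piRNAs 21ur-3336, 21ur-1680 and 21ur-7543, and in disl-2(how27) they lay between -0.26 and -0.03. In disl-2(tm5337) they lay at -0.98, -0.49 and -0.29, where 21ur-425 was at -2.01. In pup-1 against its control they lay between -2.07 and -1.68, where 21ur-425 was at -1.94. At 0 h of the time course, disl-2(how27) against none, they lay between -0.83 and -0.45, where 21ur-425 was at -1.31 and the median of all piRNAs was -0.18. In henn-1; disl-2(how18) against henn-1 they ranged from -0.36 to 0.67, and in parn-1; disl-2(tm5337) against parn-1 from -1.23 to 0.29. In the time course the slopes in the degron strain were -0.055 for 21ur-13923 and -0.161 for 21ur-4086, on either side of that of 21ur-425.

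**Figure D4:**
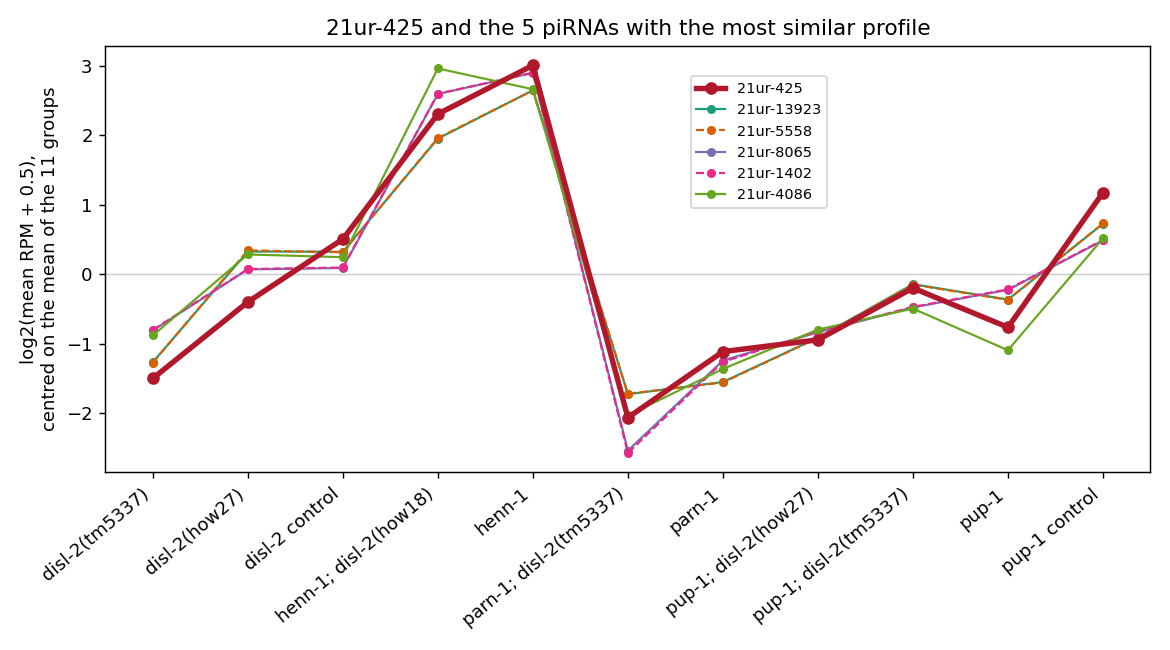
log2(mean RPM + 0.5) over the 11 steady-state groups, each line centred on its own mean, for 21ur-425 (thick red) and the 5 piRNAs with the smallest distance to it; 21ur-13923 and 21ur-5558 overlie each other, as do 21ur-8065 and 21ur-1402. In disl-2(how27) the red line drops below all 5 others.

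The 5 piRNA genes of the table on each side of 21ur-425 all carry Y64G10A clone names, as 21ur-425 does. Of these 10, 8 had a mean under 3 RPM over the steady-state libraries, and their differences are not given. The others, 21ur-12966 and 21ur-4477, had divided reads and nearly the same values. Of these, 21ur-12966 was at 33.3 RPM in disl-2(how27), against 23.4 RPM in the disl-2 control, a log2 difference of 0.49 beside a median of 0.47 over all piRNAs. In disl-2(tm5337) its difference was 0.15, beside a median of -0.19, and in pup-1 it was -0.33, beside a median of -0.81.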

How the data were processed

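Small RNAs of whole adults were treated with the phosphatase PIR-1 before adapter ligation, per the labels' protocols. The authors deposited RPM values per piRNA, scaled to sequencing depth. Trim Galore and Bowtie were used, per the submitters' processing notes, and the aligner settings, counter and genome build are not given in the sources used here. All 42 value columns were matched to samples by name. A further 10 samples of the series were not analysed here. There were 14681 entries in the table, and 1 piRNA was listed more than once. Each library's depth was taken from the step between RPM values. Between 85.8% and 88.2% of values were whole reads within 0.01 read, so no count test was used for the main results. limma voom on reads estimated from that step was run as an alternative only. A level of 0 would allow up to 3 reads, between 0.0568 and 0.341 RPM.

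limma 3.58.1 in R 4.3.3 was run on log2(RPM + 0.5) with a trended prior, for piRNAs averaging 1 RPM or more, with an own intercept and slope per strain. The threshold was an adjusted p of 0.05. The labels do not say whether replicates came from separate cultures, and the p-values given cover no more than the spread among the libraries at hand, some of which may be technical. The SE of a level difference comes from the 2 libraries of each group, so it can fall below counting error where these happen to agree closely. Besides 21ur-425, the text names its 5 nearest profiles and, of the 5 piRNA genes on each side by the WBcel235 gene table, those with a mean over 3 RPM, a limit set after the values were seen. The piRNA and the lists were chosen with earlier results of these data known. Alternatives were pseudocounts of 0.1 and 2, no filter, an average of 5 RPM or more (21ur-425 kept), rescaling, times to 6 h, a replicate block, limma voom on estimated reads, shares of the summed piRNA level, and leaving out libraries. The comparison of 4 h with 0 h and the profiles with undivided reads were added after seeing the data.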

Additional observations from a re-analysis of the deposited data

Results flagged for a closer look

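In RPM, the level of 21ur-425 differed in opposite directions with the same disl-2 allele in different strains. It was higher in both pup-1; disl-2(tm5337) libraries than in both pup-1 libraries (log2 0.57), and lower in both disl-2(tm5337) libraries than in both control libraries (log2 -2.01). Likewise it was lower in both parn-1; disl-2(tm5337) libraries than in both parn-1 libraries (log2 -0.96). These differences between strains were not tested, and pup-1; disl-2(tm5337) carries another pup-1 allele than pup-1. As a share of the summed piRNA level, the difference between pup-1; disl-2(tm5337) and pup-1 was 0.05 ± 0.22, and the libraries overlapped.

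Between 0 and 4 h of auxin, both degron; disl-2(how27) libraries at 4 h lay above both at 0 h, while both degron libraries at 4 h lay below both at 0 h. The difference of the changes was 0.97 on the log2 scale (limma adjusted p = 0.599), in a test that is not independent of the choice of 21ur-425. The opposite direction was not seen after rescaling to equal medians, where the degron value was 0.23, and the degron shares were 254 and 231 ppm at 4 h, against 233 and 165 ppm at 0 h.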

How the results depend on the processing

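The slope of 21ur-425 in the degron strain kept its direction and its call with both pseudocounts, both filters, limma voom and the replicate block (adjusted p = 0.00288 with the block, limma). Rescaling to equal medians turned the slopes to 0.025 and, with disl-2(how27), 0.040, and the 4 h minus 0 h value of the degron strain to 0.23. With the times from 0 to 6 h the slopes were -0.064 and, with disl-2(how27), 0.062. Leaving out 1 library or 1 replicate series gave slopes from -0.085 to -0.074 in the degron strain, -0.053 to -0.016 with disl-2(how27), and 0.026 to 0.063 for the difference. Same-numbered libraries did not deviate together in general (correlations from -0.44 to 0.45 over 45 pairs of groups, median -0.011, 11 over 0.1). Whether the numbers pair some libraries is not settled by these values, and the block changed no call of 21ur-425.

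The number of piRNAs called falling, 3369 in the degron strain and 2577 with disl-2(how27), was 1330 and 1123 among piRNAs averaging 5 RPM or more, which leaves fewer piRNAs, and 454 and 69 after rescaling. With disl-2(how27) it was 1433 to 6 h, and from 518 (without replicate 2) to 2679 with libraries left out; the cause was not tested. The number of piRNAs called lower at 4 h than at 0 h in the degron strain, 580, was 14 with no filter, 0 after rescaling, 1070 with limma voom, and 0 to 782 with 1 library left out, and the value of 21ur-425 then ran from -0.41 to -0.15. The difference of slopes was called by limma for 0 piRNAs (520 at unadjusted p under 0.05), by limma voom for 0, and by limma with no filter for 1.

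Level differences of 21ur-425 kept their sign under all alternatives run. As shares of the summed piRNA level they were -1.34 for disl-2(how27) and -1.82 for disl-2(tm5337) against the control, -0.48 between these alleles, -1.32 in parn-1, -1.10 for pup-1, -0.70 and 0.049 for pup-1; disl-2(how27) and pup-1; disl-2(tm5337) against pup-1, -1.80 and -1.05 for them against the pup-1 control, and -1.08, -0.78 and -0.80 in the degron strains at 0, 6 and 12 h. A pseudocount of 2 RPM gave -1.67 for disl-2(tm5337), -0.87 between the alleles, -1.72 for pup-1, -1.86 and -1.25 for the pup-1 doubles against the control, and -1.06, -0.52 and -0.46 at 0, 6 and 12 h. A pseudocount of 0.1 RPM gave -2.12 for disl-2(tm5337) and -0.69 at 12 h. Leaving out 1 library gave -0.96 to -0.39 in henn-1, -1.23 to -0.70 in parn-1, -0.26 to -0.10 for pup-1; disl-2(how27) against pup-1, and -0.49 to -0.18 at 4 h.

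With 40 to 1322 reads a library, counting error is small beside most differences given, and 2 libraries a group limit what any test can show.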
